A study of Arabidopsis thaliana with 28 samples.

Results

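The miR167 family of Arabidopsis thaliana was followed in seedlings given abscisic acid (ABA), a hormone of drought response and seed dormancy. The family was taken as every entry of the deposited miRNA table named miR167 followed by a letter, which gave 6 of 421 entries: ath-miR167a-5p, ath-miR167a-3p, ath-miR167b, ath-miR167c-5p, ath-miR167c-3p and ath-miR167d (the prefix for the species is left out below). Wild-type seedlings of the Col-0 ecotype received ABA or the ethanol (EtOH) mock for 0.5, 1, 3, 6, 9, 12 or 24 h, with 2 small RNA libraries in each of 14 groups and 28 in all. All groups share the genotype, and neither the dose of ABA nor the age of the seedlings is given in the sources used here. The labels do not state whether both libraries of a group came from different cultures. The p-values below from library values therefore measure only the spread between these libraries, which may be technical. Those from the 7 log2 ratios of group means measure the spread between times instead. The table holds miRNAs alone, so the seedling label was not checked against tissue markers.

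Plant miRNAs are cut from a hairpin precursor as a pair of arms. One arm, the guide, is loaded into an ARGONAUTE protein and directs the cutting of mRNAs that pair with it along most of its length, and the other arm, the passenger, is mostly degraded. The guide of the miR167 family is the 5p arm. Its best known targets are the mRNAs of ARF6 and ARF8, auxin response factors that activate auxin-responsive genes and act in flower maturation, fertility and root formation from shoots. IAR3, an enzyme that frees the auxin indole-3-acetic acid from its alanine conjugate, is another reported target.

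The guides are shown first because the family differs in a few bases only, and those bases decide which entries can be told apart. All were read from the RefSeq annotation of TAIR10.1, 5′ to 3′, with the seed (bases 2 to 8) in capitals.
miR167a-5p: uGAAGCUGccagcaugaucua
miR167b: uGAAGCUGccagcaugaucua
miR167c-5p: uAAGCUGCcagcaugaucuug
miR167d: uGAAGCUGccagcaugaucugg
The guides of MIR167a (AT3G22886; chr3:8108090-8108110, plus strand) and MIR167b (AT3G63375; chr3:23406177-23406197, plus strand) are the same 21 bases, so a read of the guide cannot be assigned to either locus by its sequence. The guide of MIR167d (AT1G31173; chr1:11137556-11137577, plus strand) has 22 bases and the same seed GAAGCUG. Counted from the 5′ end of miR167a-5p, it carries A21G and 1 further base at its 3′ end. The guide of MIR167c (AT3G04765; chr3:1306750-1306770, minus strand) starts 1 base further in. Set against miR167a-5p with that shift it carries G2U and A21U, shares an unbroken run of 18 bases with it, and has the seed AAGCUGC.

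The passenger arms are shown because they differ between loci and have library values in every group.
miR167a-3p: gAUCAUGUucgcaguuucacc
miR167c-3p: uAGGUCAUgcugguaguuucacc
They lie on the same hairpins as their guides, at chr3:8108172-8108192 on the plus strand and chr3:1306630-1306652 on the minus strand. They have 21 and 23 bases, different seeds, and a longest shared run of 9 bases, so the sequence of each tells its locus, which that of the a and b guides does not. The hairpins of both loci follow, with both mature arms in capitals.
MIR167a: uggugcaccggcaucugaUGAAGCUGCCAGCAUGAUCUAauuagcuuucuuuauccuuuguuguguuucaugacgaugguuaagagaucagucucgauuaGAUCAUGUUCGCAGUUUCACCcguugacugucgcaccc
MIR167c: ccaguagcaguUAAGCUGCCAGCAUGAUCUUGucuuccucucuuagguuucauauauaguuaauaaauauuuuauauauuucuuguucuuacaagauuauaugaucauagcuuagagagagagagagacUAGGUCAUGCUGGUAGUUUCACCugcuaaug
MIR167a spans chr3:8108072-8108209 with 138 bases and MIR167c spans chr3:1306622-1306781 with 160 bases. In the annotation, each of the 6 mature arms overlaps no gene other than its own MIR gene.

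The sites that the guides pair with are shown on the mRNA strand, with the bases that pair with miR167a-5p in capitals.
ARF6: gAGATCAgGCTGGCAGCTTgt
ARF8: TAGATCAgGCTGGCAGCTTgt
IAR3: gAtccgATaCTGGCAGCTTCA
The ARF6 site lies in the coding sequence at chr1:10686478-10686498 on the minus strand, in exon 14, and leaves 4 positions of miR167a-5p unpaired. The ARF8 site lies in the coding sequence at chr5:14633841-14633861 on the plus strand, in exon 13, and leaves 3 unpaired. The IAR3 site at chr1:19200652-19200672 on the plus strand is in coding exon 3 and leaves 6 unpaired. Against ARF6, miR167c-5p had 1 mismatch and 3 G:U pairs, and miR167d had 4 mismatches and 1 G:U pair. Against ARF8, miR167c-5p had 2 mismatches and 2 G:U pairs, and miR167d had 3 mismatches and 2 G:U pairs. The target mRNAs were not analysed here.

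The 14 groups of the authors' deposited table summed to 4305799.9 normalised counts (mock, 6 h) up to 7644818 (ABA, 1 h). Each deposited value is the mean of 2 libraries, and the 2 library values behind it could be recovered in all groups for 354 of the 421 miRNAs. Among the family this held for miR167a-3p, miR167c-3p and miR167c-5p, all of which passed the filter on low values, while the abundant miR167a-5p, miR167b and miR167d are given by their group means. In each group, library a is the one with the larger size factor and library b the other, and the letters carry no replicate number. Within a group, log2 values of library a and library b differed with an SD of 0.31 to 0.64 over miRNAs with a mean of at least 10. Each time was scaled separately by the authors, so levels are compared between ABA and mock within a time unless a joint scale is named.

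The levels of the family spanned more than 2 orders of magnitude. In the authors' deposited table miR167a-5p held a median over the 7 times of 111963 normalised counts in ABA and 162197 in mock, and ranked 8 to 12 of all entries in ABA and 7 to 10 in mock. The authors' deposited table listed miR167b at nearly the same values, 0.167% to 0.198% above miR167a-5p in ABA and 0.118% to 0.184% above it in mock. With 1 shared sequence, the pair of entries is described below by miR167a-5p and is not a pair of independent measurements. The authors' deposited table gave miR167d medians of 39777 in ABA and 26004 in mock, at ranks of 22 to 33 in ABA and 33 to 41 in mock. The third guide, miR167c-5p, had medians of 1483 in ABA and 1195 in mock in the authors' deposited table. The passenger miR167a-3p had medians there of 1340 in ABA and 2742 in mock, and miR167c-3p had 1240 in ABA and 771 in mock. In mock the order by median was therefore miR167a-5p, miR167d, miR167a-3p, miR167c-5p and miR167c-3p, and in ABA miR167c-5p stood above miR167a-3p. In ABA the library ranges of the 3 lowest entries overlapped when taken over all times. Within each ABA library, miR167c-3p stayed below miR167c-5p, at 71.7 to 97.8 per 100 of it. The ratio of miR167a-3p to miR167c-3p ran from 0.50 to 2.14 there, so the place of miR167a-3p varied between libraries. In mock the libraries of miR167c-5p (887 to 1501) and miR167c-3p (565 to 978) overlapped slightly over the times. Within each mock library, miR167c-3p was again the lower, at 44.3 to 83.9 per 100 of miR167c-5p. The mock libraries of miR167a-3p (1923 to 6116) lay above both.

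ABA moved the passenger arms of MIR167a and MIR167c in opposite directions. miR167a-3p was lower in ABA from 6 h on, and miR167c-3p was higher in ABA at every time, while the MIR167c guide was 1.31-fold higher on average. In whole seedlings, fewer cells of a type and less RNA per cell cannot be told apart. On the scale of log2(value + 1), limma with Benjamini-Hochberg adjustment over 349 miRNAs gave a mean ABA minus mock difference over the 7 times of -1.20 (SE 0.13, adjusted p 1.486e-07) for miR167a-3p. The same test gave 0.77 (SE 0.075, adjusted p 4.643e-08) for miR167c-3p and 0.39 (SE 0.064, adjusted p 5.859e-05) for miR167c-5p. All 3 tested members thus passed, in a comparison that called 47.3% of the miRNAs tested, 22.9% as raised and 24.4% as lowered. The median difference of all miRNAs was -0.04.

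**Figure D1:**
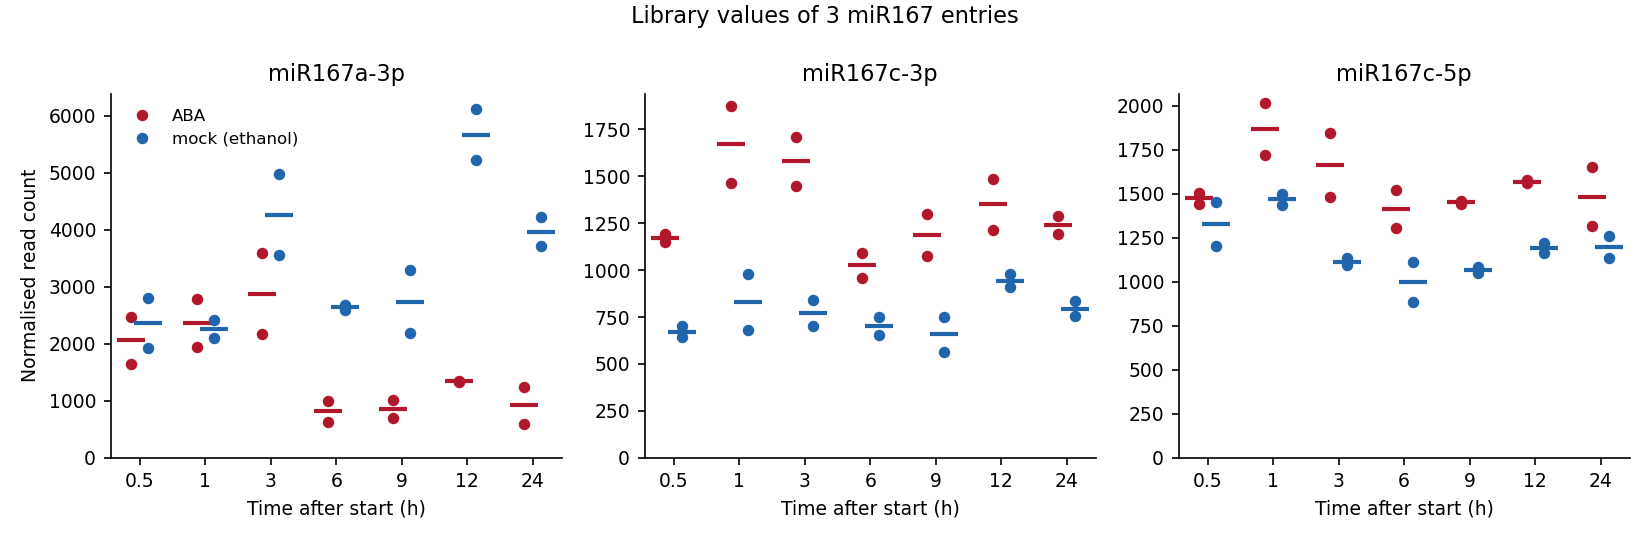
Normalised read counts of miR167a-3p, miR167c-3p and miR167c-5p (vertical axes from 0) by time (h), with a point for each library and a dash for the group mean, ABA left and mock right at each time. The ABA points of miR167a-3p lie below the mock points at 6, 9, 12 and 24 h, and those of miR167c-3p lie above the mock points at all 7 times.

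miR167a-3p, the passenger of MIR167a, showed no separation at the early times. At 0.5 h it had 2463 and 1655 normalised counts in the ABA libraries, against 1923 and 2797 in the mock libraries. At 1 h it had 2794 and 1936 in ABA, against 2427 and 2095 in mock. At 3 h it had 2168 and 3597 in ABA, against 4988 and 3551 in mock. The ABA and mock libraries overlapped at all 3 of these times, and the differences of -0.20, 0.045 and -0.59 (SE 0.34 each) did not pass, with adjusted p of 0.769, 0.968 and 0.284 in limma's fit. The signs of the first 2 depend on a single library or on the scaling.

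From 6 h on, both ABA libraries of miR167a-3p lay below both mock libraries. At 6 h it had 996 and 634 normalised counts in ABA, against 2597 and 2678 in mock. At 9 h it had 693 and 1020 in ABA, against 3295 and 2189 in mock. These are log2 differences of -1.73 and -1.67, with adjusted p of 0.001986 and 0.002337 by limma, at times when 7.96% and 13.2% of the miRNAs tested were called. At 12 h it had 1353 and 1328 in ABA, against 5225 and 6116 in mock. At 24 h it had 1246 and 595 in ABA, against 3711 and 4219 in mock. The differences at 12 and 24 h were -2.08 and -2.20 (SE 0.34), or 4.22-fold and 4.59-fold lower in ABA, with adjusted p of 0.0001665 and 7.542e-05 by limma and a background of 10.4% and 21.8% called. The call at 6 h was lost without ABA library b (-1.40, adjusted p 0.0634) and that at 9 h without ABA library a (-1.39, adjusted p 0.0588). The share of all tested miRNAs with both ABA libraries below both mock libraries was 22.7% at 6 h, 25.3% at 9 h, 29.8% at 12 h and 31.8% at 24 h.

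The change in miR167a-3p between times was tested directly. Its mean difference at 6 to 24 h minus its mean difference at 0.5 to 3 h was -1.67 (SE 0.26, adjusted p 7.489e-05 by limma), in a contrast that called 15.8% of 349 miRNAs, 6.02% as raised and 9.74% as lowered. The interaction of ABA and time over all 7 times had an adjusted p of 0.004922 in limma's F test, which called 6.3% of the miRNAs. For miR167c-3p the same contrasts gave -0.31 (SE 0.15, adjusted p 0.1525) and an interaction adjusted p of 0.597. For miR167c-5p they gave 0.055 (SE 0.13, adjusted p 0.8193) and 0.8423, so neither arm of MIR167c had a detectable change of its ABA difference with time.

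On a joint scale over the 28 libraries, miR167a-3p moved in both treatments. In ABA its group means were 2001, 1950, 2924, 960.5, 897.2, 1254 and 993.8 normalised counts at 0.5, 1, 3, 6, 9, 12 and 24 h, and in mock they were 2244, 1904, 4249, 3140, 2860, 5397 and 4320. In ABA the highest mean was at 3 h, but its libraries were 2226 and 3622, the lower of them below library a of 0.5 h (2408). After 3 h the ABA means stayed below those of 0.5 and 1 h. In mock the means at 12 and 24 h were above that at 3 h. The mock means after 3 h stayed above those of 0.5 and 1 h, though library b of 9 h (2293) lay below library b of 0.5 h (2664). The F test over times in ABA had an adjusted p of 0.002776 by limma (14.6% of 350 miRNAs called), and that in mock had 0.02598 (13.7% called). The mock time course was the less firm, since leaving out either library of mock at 1, 12 or 24 h, or library a of mock at 0.5 h, gave adjusted p of 0.0513 to 0.0852. Neither MIR167c arm passed in either treatment, with adjusted p of 0.4231 in ABA and 0.383 in mock for miR167c-3p and 0.8106 in ABA and 0.8803 in mock for miR167c-5p.

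miR167c-3p, the passenger of MIR167c, was the member whose libraries separated most regularly. At 0.5 h it had 1150 and 1192 normalised counts in ABA, against 700 and 645 in mock. At 1 h it had 1466 and 1875 in ABA, against 977 and 679 in mock. At 3 h it had 1450 and 1709 in ABA, against 842 and 701 in mock. These early differences were 0.80, 1.03 and 1.03 (SE 0.20 each), or 1.74-fold to 2.05-fold, and passed with adjusted p of 0.01202, 0.001607 and 0.001895 by limma, at times when 7.65%, 9.2% and 6.63% of miRNAs were called. At 6 h it had 958 and 1092 in ABA, against 654 and 751 in mock, and at 9 h it had 1075 and 1299 in ABA, against 750 and 565 in mock. At 12 h it had 1487 and 1213 in ABA, against 911 and 978 in mock, and at 24 h it had 1290 and 1191 in ABA, against 754 and 836 in mock. The 9 and 24 h differences of 0.86 and 0.64 passed (adjusted p 0.005023 and 0.02289 by limma), at times when 13.2% and 21.8% of miRNAs were called. Those at 6 and 12 h, 0.54 and 0.51, did not pass (adjusted p 0.0971 and 0.112 by limma).

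Both ABA libraries of miR167c-3p lay above both mock libraries at 7 of 7 times, a pattern that 12 of the 349 tested miRNAs had (3.44%). At single times, 26.8%, 25.2%, 22.3%, 24.8%, 23.8%, 30.7% and 31.2% of the tested miRNAs showed it, in order of time. Its calls at single times were less firm than its mean difference. Leaving out any 1 of the 4 libraries ended the call at 0.5 h (adjusted p 0.0675 to 0.104) and at 24 h (0.0706 to 0.161), mock library b ended it at 1 h (0.76, adjusted p 0.0623) and mock library b at 9 h (0.66, adjusted p 0.0766). The call at 3 h was lost with the spread taken from the 4 libraries of that time alone (adjusted p 0.1373 by limma), and that at 0.5 h with quantile normalization (0.46, adjusted p 0.1302).

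miR167c-5p, the guide of the same hairpin, was higher in ABA by a smaller amount. At 0.5 h it had 1443 and 1506 normalised counts in ABA, against 1204 and 1455 in mock. At 1 h it had 1722 and 2015 in ABA, against 1501 and 1440 in mock, and at 3 h 1483 and 1847 in ABA, against 1094 and 1134 in mock. At 0.5 h the groups overlapped, with a mock library between the ABA libraries, and at 1 and 3 h they did not. At 6 h it had 1307 and 1524 in ABA, against 887 and 1115 in mock, and at 9 h 1445 and 1461 in ABA, against 1085 and 1052 in mock. At 12 h it had 1577 and 1564 in ABA, against 1223 and 1166 in mock, and at 24 h 1651 and 1316 in ABA, against 1136 and 1263 in mock. Both ABA libraries lay above both mock libraries at 6 of 7 times, and 5.73% of the 349 tested miRNAs had this at 6 or 7 times. The differences at single times ran between 0.16 and 0.57 (SE 0.17). Only that at 3 h passed, with an adjusted p of 0.04756 by limma, at a time when 6.63% of miRNAs were called. This call was ended by 17 of the 28 libraries when left out, as far as an adjusted p of 0.351 without ABA library b of 3 h. The mean over times, 1.31-fold, passed without any 1 library.

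The guides of MIR167a, MIR167b and MIR167d hold most of the family's signal. The authors' deposited table gave miR167a-5p means of 187056, 233823, 169600, 103783, 111963, 110369 and 98020 in ABA at 0.5, 1, 3, 6, 9, 12 and 24 h. The means for mock in the authors' deposited table were 162197, 315368, 181987, 131641, 153313, 175522 and 133445. The ABA mean was the higher at 0.5 h and the lower at the 6 later times. Of the 7 times, the authors' deposited table called 12 h alone, with a log2 ratio of -0.67 and an adjusted p of 2.39e-06, where 24% of its miRNAs were called. Taking the 7 log2 ratios of group means as the repeats, limma over 396 miRNAs gave miR167a-5p a mean of -0.32 (SE 0.12, adjusted p 0.06568) and miR167b -0.32 (adjusted p 0.06578). This comparison called 27.8% of the miRNAs tested, 12.9% as raised and 14.9% as lowered, with a median of -0.02, and miR167a-5p did not pass in it. Without 0.5 h, the time at which its ABA mean was the higher, miR167a-5p was called at -0.41 (adjusted p 0.008465 by limma).

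miR167d went the other way. The authors' deposited table gave it 39911, 44965, 33782, 35902, 37728, 39777 and 43958 in ABA at the 7 times. In mock the authors' deposited table gave 27521, 28224, 29703, 24695, 25425, 23566 and 26004. The ABA mean was above the mock mean at 7 of 7 times, with the smallest gap at 3 h. The mean log2 ratio was 0.57 (SE 0.11, adjusted p 0.003069 by limma), or 1.49-fold, where 12.9% of 396 miRNAs were called raised. On shares of the group total the mean was 0.33 and the call was lost (adjusted p 0.06454 by limma), with the ratio at 3 h below 0 (-0.29). The authors' deposited table called it at 12 h (log2 ratio 0.76, adjusted p 1.44e-07) and at 24 h (0.76, adjusted p 0.0194, where 15.3% were called). Library values could be recovered in 2 groups only, ABA at 0.5 h (36808 and 43014) and ABA at 6 h (30831 and 40973). In both, the 2 libraries lay above the mock mean of the same time.

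**Figure D2:**
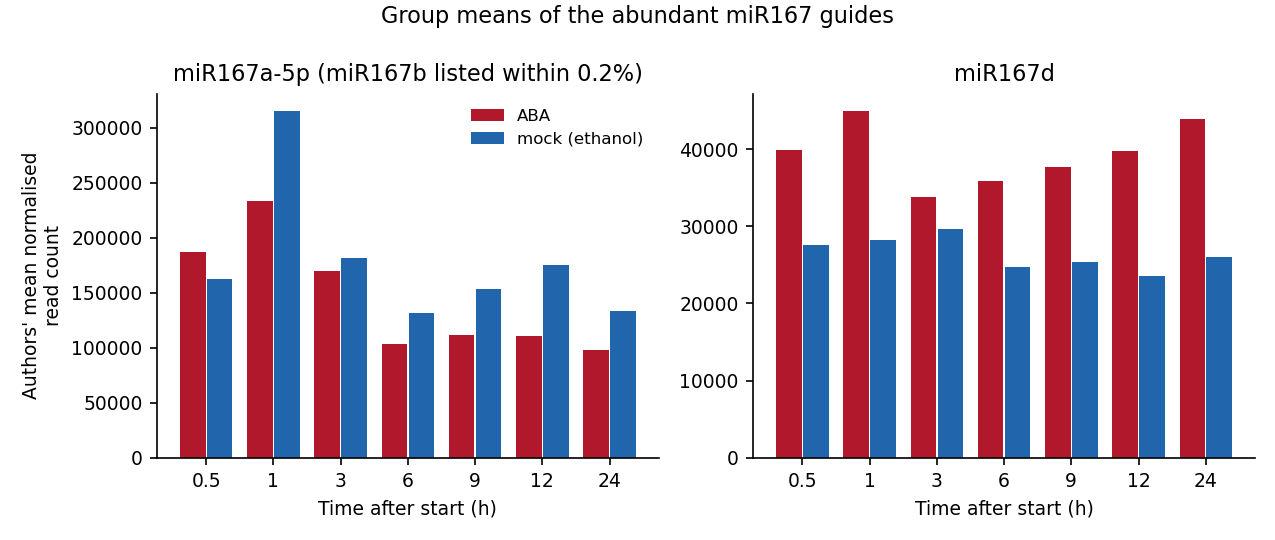
Mean normalised read counts from the authors' deposited table for miR167a-5p and miR167d (bars from 0) by time (h), ABA left and mock right at each time, with no error bars since library values were not recovered for all groups. The ABA bar of miR167a-5p is the higher at 0.5 h and the lower afterwards, and the ABA bar of miR167d is the higher at all 7 times, though not at 3 h on shares of the group total.

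The other 3 members in the same fit of the 7 ratios gave -1.18 (SE 0.27, adjusted p 0.008494 by limma) for miR167a-3p, 0.77 (SE 0.11, adjusted p 0.0005723) for miR167c-3p and 0.39 (SE 0.098, adjusted p 0.01319) for miR167c-5p. Of the 6 entries, 3 were called raised, 1 was called lowered and 2, which share 1 sequence as the a and b guide, did not pass. Over all 396 miRNAs this fit called 12.9% as raised and 14.9% as lowered. The calls of the guides depend in part on the scaling, while their mean ratios kept their signs. At single times, the ratio of miR167d at 3 h changed sign. The summed signal of the table was higher in ABA from 1 h on, by 0.47 on the log2 scale at 3 h and by 0.28 at 24 h. With each value taken as a share of its group's total, the median ratio of all miRNAs moved from -0.02 to -0.27, and the calls split into 26 raised and 113 lowered, against 51 raised and 59 lowered before. On those shares miR167c-5p had 0.14 (adjusted p 0.3012 by limma) and lost its call, as miR167d did. miR167a-5p and miR167b had -0.57 (adjusted p 0.008052 by limma) and were then called lowered, while miR167c-3p (0.53) and miR167a-3p (-1.43) kept their calls.

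**Figure D3:**
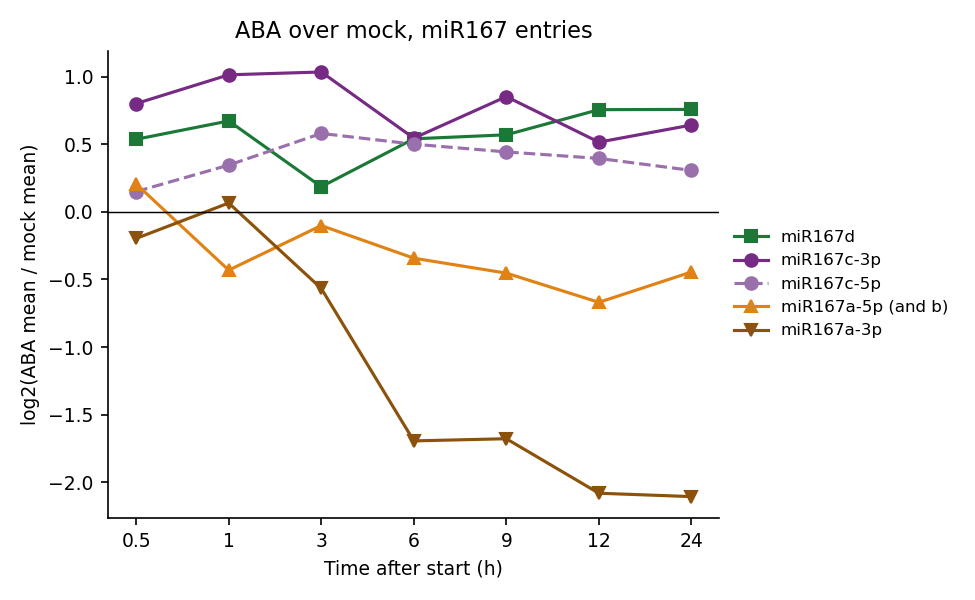
Log2 ratio of group means, ABA over mock, in the authors' deposited table (vertical axis, 0 marked) by time (h), with a line for each miR167 sequence. miR167d, miR167c-3p and miR167c-5p lie above 0 at all 7 times (miR167d not at 3 h on shares of the group total), miR167a-5p lies below 0 after 0.5 h, and miR167a-3p reaches -2.11 at 24 h.

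The authors' own adjusted p-values overlap with these results in part. For miR167a-3p the authors' deposited table gave 8.38e-05 at 6 h, 0.0107 at 9 h, 2.72e-25 at 12 h and 2.12e-11 at 24 h, and none under 0.05 earlier. At 6, 9, 12 and 24 h, 3.87%, 5.39%, 24% and 15.3% of its miRNAs were called. For miR167c-3p the authors' deposited table gave 0.0223 at 0.5 h, 0.0277 at 1 h and 0.0158 at 12 h, with 11.2% and 4.65% of miRNAs called at 0.5 and 1 h. For miR167c-5p the authors' deposited table gave 0.03 at 12 h alone. Every entry of the family was under 0.05 at 12 h, the time at which the largest share of the table was called (24%). At 3 h, where the fit above called miR167c-3p and miR167c-5p, the authors' deposited table called 0.246% of its miRNAs and no member of the family.

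The makeup of the guide pool does not depend on how ABA and mock were scaled, since it is a share within a group. Counting the shared a and b sequence once, miR167d made up 17.5%, 16.0%, 16.5%, 25.4%, 24.96%, 26.2% and 30.6% of the guide signal in ABA at the 7 times. In mock it made up 14.4%, 8.18%, 13.96%, 15.7%, 14.1%, 11.8% and 16.2%. The ABA share was above the mock share at every time, by least at 3 h and by most at 12 and 24 h. The c guide stayed at 0.645% to 1.04% in ABA and 0.426% to 0.747% in mock. The whole pool held 2.40% to 4.01% of the table's signal in ABA and 3.21% to 4.94% in mock. The pool counts the shared guide once, whereas the table's signal adds every entry, miR167b and other repeated sequences included. These percentages are therefore lower than with each sequence counted once. These shares rest on the authors' deposited means and carry no replicate error.

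**Figure D4:**
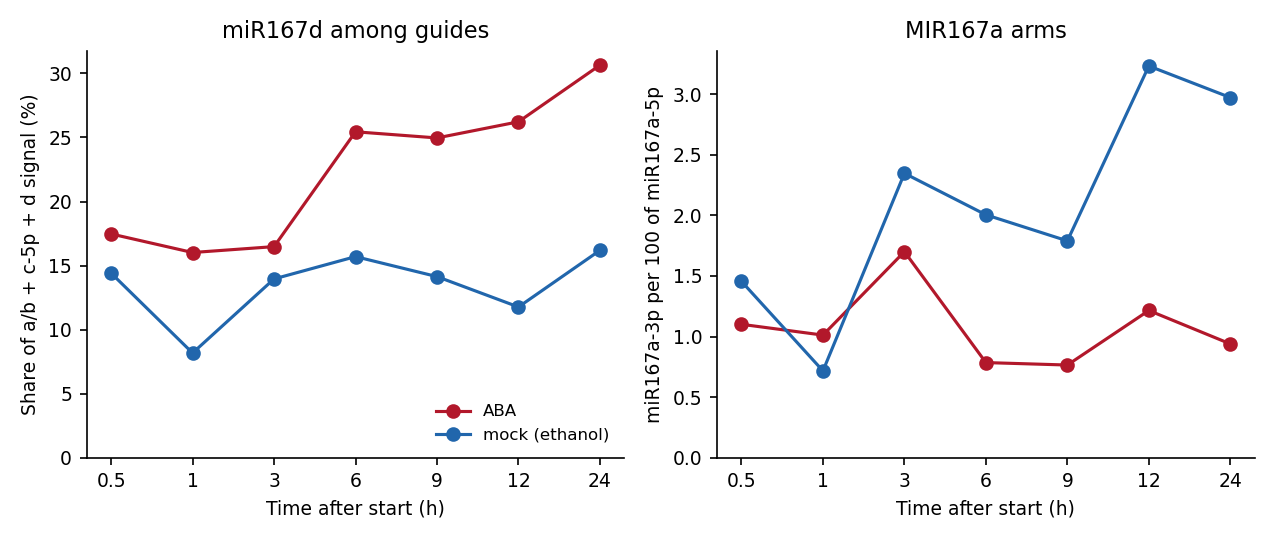
Left, the share (%) of miR167d in the summed guide signal of miR167a-5p, miR167c-5p and miR167d by time (h). Right, miR167a-3p per 100 of miR167a-5p by time, with ABA and mock as lines of group means in both panels. The miR167d share reaches 30.6% in ABA and 16.2% in mock at 24 h, and the passenger ratio is lower in ABA at every time but 1 h.

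The arms of a hairpin can be set against each other in the same way. miR167a-3p per 100 of miR167a-5p was 1.10, 1.012, 1.70, 0.785, 0.765, 1.22 and 0.940 in ABA at the 7 times, against 1.46, 0.717, 2.35, 2.004, 1.79, 3.23 and 2.97 in mock. The ABA ratio was lower at 6 of 7 times. Since miR167a-5p holds the signal of MIR167b as well, this is not the arm ratio of MIR167a alone. At MIR167c the passenger was far closer to its guide in level. miR167c-3p per 100 of miR167c-5p ran from 71.7 to 97.8 over the 14 ABA libraries, with a median of 82.5, and from 44.3 to 83.9 over the 14 mock libraries, with a median of 66.3. These ranges overlapped. The ratio of miR167a-3p to miR167c-3p, the pair of arms specific to their loci, was 0.50 to 2.14 in the ABA libraries (median 1.04), and 2.48 to 6.26 in the mock libraries (median 4.37). This ratio divides the member called lowered by a member called raised, so it restates those differences and is no separate result.

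Over the 14 group means, the log2 patterns of miR167c-3p, miR167c-5p and miR167d were alike, and those of miR167a-3p and miR167a-5p were more loosely so. Pearson's r was 0.88 between miR167c-3p and miR167c-5p, 0.84 between miR167c-5p and miR167d and 0.80 between miR167c-3p and miR167d. It was 0.52 between miR167a-3p and miR167a-5p, and -0.77 between miR167a-3p and miR167d. For miR167a-5p it was -0.45 with miR167c-3p, -0.46 with miR167c-5p and -0.62 with miR167d. These are descriptions over 14 points, for members measured in the same libraries. The points are ABA and mock groups, so r partly restates the differences between ABA and mock given above and is no separate result. The group means were first put on a joint scale over all 14 groups. Among 343 other miRNAs, the entries most like miR167a-3p were miR169b-3p (0.95), miR839-5p (0.94) and miR773a (0.91), and those most like miR167a-5p were miR842 (0.86), miR160a-3p (0.82) and miR846-3p (0.80). Those most like miR167d were miR857 (0.91), miR8180 (0.88) and miR8166 (0.87). For miR167c-5p they were miR857 (0.94), miR397a (0.91) and miR2111b-3p (0.90), and for miR167c-3p they were miR408-3p (0.91), miR162b-5p (0.90) and miR408-5p (0.90).

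Other miRNAs with targets in auxin signalling were described as a list of 19 entries from the miR160, miR164, miR390, miR393 and miR847 families. The list holds guide and passenger arms alike. miR160 targets repressor-type ARF mRNAs, miR164 targets NAC factors, miR390 sets off the small RNAs that act on further ARF mRNAs, miR393 targets the auxin receptors and miR847 targets an auxin response repressor. In the fit of the 7 ratios all 19 were tested, of which 3 were called raised, 7 lowered and 9 neither, with a median of -0.01 against -0.02 for all miRNAs. Over all miRNAs that fit called 12.9% as raised and 14.9% as lowered. With 1 entry for each sequence, 14 were tested, with 2 raised, 6 lowered and a median of -0.31. The raised entries were miR393a-5p and miR393b-5p, which share a sequence (0.84, adjusted p 0.00122 by limma), and miR160c-3p (0.42, adjusted p 0.0285). Among the lowered were miR393a-3p (-0.80, adjusted p 0.00398 by limma), miR847 (-0.78, adjusted p 0.0105) and miR160a-3p (-0.75, adjusted p 0.00131). Smaller falls were called for miR390a-3p (-0.67, adjusted p 0.0164 by limma) and miR390a-5p (-0.63, adjusted p 0.041). Guide and passenger of miR393a thus lay on opposite sides of 0. Where library values were recovered, 12 of the list were tested for the mean over times, with 1 raised, 8 lowered and a median of -0.56 against -0.04 for all miRNAs, of which 22.9% were called raised and 24.4% lowered. With 1 entry for each sequence, 11 were tested there, with 1 raised, 7 lowered and a median of -0.50. Most of the 12 were 3p arms. The 5p arms of miR160 and miR393 lacked library values in some groups and are missing from these medians. In the fit of the 7 ratios, miR160a-5p had 0.013 and miR393a-5p 0.84.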

How the data were processed

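Per the submitters' processing notes, FastQC served for read checks and STAR for mapping to TAIR10. Which versions, counter and miRNA annotation were used, and how reads with several loci were treated, is not given in the sources used here. More samples than the 28 in the labels are mentioned by the design text, and these 28 were used. Per the file headers, the deposited table holds for each treatment and time a mean normalised signal per miRNA, and for each time the authors' log2 ratio and adjusted p-value. Single libraries had been assumed in the planned tests. The deposited log2 ratio equals that of the 2 group means, ABA over mock.

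Each mean had the form of 2 whole counts divided by size factors (0.687 to 1.36) and averaged. It was split into library values where the counts had a unique solution, as 5281 of 5894 values did (89.6%). The recovered counts make up 3.55% to 12.5% of a group's total, since the abundant miRNAs could not be split. Library values were used as log2(value + 1), with a pseudocount of 1. The model (limma 3.58.1 in R 4.3.3; lmFit, then eBayes with a trend) had 14 group means and 14 residual degrees of freedom, for miRNAs at 1 or more in 2 or more libraries. For entries without library values, limma tested the 7 log2 ratios of group means of at least 1 against 0, so that the times act as repeats and no library spread enters. Time courses used size factors over all 28 libraries. Tests were two-sided with Benjamini-Hochberg adjustment over all miRNAs tested and a threshold of 0.05. The split and the fits were tested on simulated data. Alternatives were other pseudocounts, filters, scalings and spreads, and leaving out libraries or times. Sequences and positions come from RefSeq TAIR10.1, joined by name for 413 of 421 entries, with no position carried between builds. All family members are named, and for likeness the 3 miRNAs with the highest Pearson's r to each member. The members and lists were chosen with earlier results of these data known.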

Additional observations from a re-analysis of the deposited data

Results flagged for a closer look

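Of the 3 members with library values, miR167a-3p was the one whose ABA difference varied with time beyond the spread between libraries. The interaction of ABA and time had an adjusted p of 0.004922 in limma's F test over 349 miRNAs, of which 6.3% were called. The mean difference at the 4 later times minus that at the 3 earlier times was -1.67 on the log2 scale, in a contrast that called 9.74% of the miRNAs as lowered. Both ABA libraries lay below both mock libraries at each of the 4 later times and at none of the earlier ones. At these later times 22.7%, 25.3%, 29.8% and 31.8% of the tested miRNAs did so, in order of time. The share that did so at all 4 together was not computed. The cause was not tested.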

How the results depend on the processing

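Of 1440 values recomputed under other settings, 1384 kept their direction and their side of the threshold, 43 lost a call, 7 gained one and 6 changed sign. Many of these values are differences at a single time with a library of another time left out. That cannot move the difference, only its SE and adjusted p, so the count of kept directions says little. The mean differences over times kept their direction and their call under every setting run. They ran from -1.41 to -1.04 for miR167a-3p, 0.70 to 0.82 for miR167c-3p and 0.35 to 0.43 for miR167c-5p. Quantile normalization gave -0.25 for miR167a-3p at 1 h, -0.079 for miR167c-5p at 0.5 h, 0.46 for miR167c-3p at 0.5 h (call lost) and 0.51 for miR167c-5p at 24 h (call gained). With only the 4 libraries of a time, miR167c-3p gained a call at 12 h (0.51) and lost it at 3 h (1.03), and miR167c-5p gained one at 12 h (0.39) and lost it at 3 h (0.57). The 3 h call of miR167c-5p was also lost with median centring (0.53) and without the trend (0.57). Shares of the group total, a setting chosen after seeing the data, gave 0.14 for miR167c-5p and 0.33 for miR167d (calls lost), and -0.57 for miR167a-5p and miR167b (calls gained). Without 0.5 h, its 1 time of opposite sign, the shared guide gained a call at -0.41, and with any other time left out it gained none. With 1 library left out, miR167a-3p ran from -0.49 to 0.087 at 0.5 h, from -0.22 to 0.31 at 1 h, from -2.05 to -1.40 at 6 h and from -1.97 to -1.38 at 9 h, and the adjusted p of its mock time course from 0.0154 to 0.0852. Likewise miR167c-3p ran from 0.74 to 0.86 at 0.5 h, from 0.76 to 1.29 at 1 h, from 0.66 to 1.06 at 9 h and from 0.57 to 0.72 at 24 h, and miR167c-5p from 0.41 to 0.73 at 3 h. Unless stated, the cause of these shifts was not tested. The edgeR alternative was not run, since counts of the abundant miRNAs were not recovered. No paired analysis was possible because the recovered libraries carry no replicate numbers. Precision is limited by 2 libraries a group and, for miR167a-5p, miR167b and miR167d, by group means without library spread.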
